A study of Mus musculus with 86 samples.

Results

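The 6 RNAs described here, Brsk1, Gsk3b, Tbl1x, Zfp652, Peg10 and Aldh7a1, are those named for a fall of their neurite to soma ratio in both TDP-43 knockout lines of the study, CAD and N2A. They are 6 of 16200 genes that could be tested for this ratio in both lines. Because they were chosen on the ratio itself, its change in the knockouts is given below as a description. Tests were kept to other measures. Of these, transcript usage, the level averaged over compartments and its difference between the lines are not wholly free of the choice. RNA was sequenced from soma and neurite fractions, separated on porous membranes, in 12 groups of 3 libraries (36 libraries). CAD, a mouse catecholaminergic neuronal line, and N2A, a mouse neuroblastoma line, carried an HA-tagged TDP-43 transgene under a doxycycline-off promoter, and their endogenous TDP-43 alleles had been inactivated by CRISPR/Cas9 in clones grown from single sorted cells, so that each line stands for few clones at most. Wild-type here means these TetOff TDP-43 cells without doxycycline, and knockout means the same cells after 48 h with doxycycline, at 2 µg/mL in the labels, so that doxycycline itself and the loss of TDP-43 cannot be told apart. Another set of CAD cells kept their endogenous TDP-43 alleles and expressed a doxycycline-inducible, single-copy, HA-tagged TDP-43 transgene with a synthetic 3′ UTR, either wild-type (WT transgene) or carrying the ALS-linked Q331K substitution (Q331K transgene), with doxycycline in both groups.

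TDP-43 is a mostly nuclear RNA-binding protein that prefers GU-rich RNA, and it takes part in splicing, polyadenylation site choice, RNA stability and RNA transport. RNAs reach neurites by transport in granules, by diffusion and by local protection from decay, so the level of an RNA in a neurite fraction and its level in the soma need not move together. The 6 RNAs encode proteins of unlike roles. Brsk1 (SAD-B) is a neuronal kinase of the AMPK-related family that acts in axon and dendrite specification downstream of LKB1, and Gsk3b is the serine/threonine kinase that phosphorylates beta-catenin in the Wnt pathway and many microtubule-associated proteins. Tbl1x belongs to nuclear receptor corepressor complexes, and Zfp652 is a zinc-finger repressor of transcription that works with ETO-family partners. Peg10 is a paternally expressed gene derived from a retrotransposon, and Aldh7a1 (antiquitin) is an aldehyde dehydrogenase of lysine breakdown.

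In the GENCODE vM21 annotation of GRCm38 (mm10), Brsk1 (ENSMUSG00000035390) lies at chr7:4690604-4715997, Gsk3b (ENSMUSG00000022812) at chr16:38089001-38246084, Tbl1x (ENSMUSG00000025246) at chrX:77511013-77662983, Zfp652 (ENSMUSG00000075595) at chr11:95712673-95835115 and Peg10 (ENSMUSG00000092035) at chr6:4747306-4760517, all on the plus strand. The longest annotated 3′ UTR of each gene was searched on the transcript strand for 3 GU-rich 5mers (GTGTG as well as TGTGT and also GTATG), with overlapping matches counted. Among 12880 genes, 89.0% held at least 1 match, 76.6% held GTGTG, 81.6% held TGTGT and 60.1% held GTATG, at a median of 4.59 matches per kb. The 30-base stretch with the most bases inside matches is shown for 5 of the RNAs, because it lets the GU content of the 3′ UTRs be compared by eye. Capitals mark bases inside a match, all windows are on the plus strand of GRCm38, and they lie at chr16:38243002-38243031 (Gsk3b), chr11:95767848-95767877 (Zfp652), chrX:77662889-77662918 (Tbl1x), chr6:4757294-4757323 (Peg10) and chr7:4715563-4715592 (Brsk1).
Gsk3b: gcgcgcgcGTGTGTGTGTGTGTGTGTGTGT
Zfp652: gcggaggcGTGTGTGTGTGTGTGTGTGTGT
Tbl1x: aaaaaatcacctTGTGTGTtgtagctcatt
Peg10: tcaatctatgacTGTGTGgtactggacctt
Brsk1: taaggcccaaggaGTATGttgggagggggg

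The 3′ UTRs of Gsk3b and Zfp652 thus held an unbroken GT repeat, which ran for 35 nt in Gsk3b and 30 nt in Zfp652. Gsk3b had 122 matches in a 3′ UTR of 5515 nt (22.1 per kb), and 2.61% of genes had a denser 3′ UTR. Zfp652 had 72 matches in 8294 nt (8.68 per kb, with 16.6% of genes denser). The other 4 lay closer to the median of all genes, at 5.92 per kb for Brsk1 (3 matches in 507 nt), 4.63 for Tbl1x (15 in 3242 nt), 3.59 for Aldh7a1 (8 in 2231 nt) and 2.90 for Peg10 (15 in 5166 nt). The Aldh7a1 value is that of Aldh7a1-208, a minor transcript, and the 3′ UTR of Aldh7a1-201, which holds most of the gene's TPM, has 209 nt and 0 matches. A dense GU content was therefore a feature of some of the 6 RNAs and not shared by all. A match is a description of letters and does not show that TDP-43 binds there.

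Libraries held 25009904 to 32895542 estimated counts in CAD cells, 22726534 to 31911030 in N2A cells and 9783050 to 15870647 in the transgene cells. Tardbp, which encodes TDP-43, fell from a mean of 537 CPM (a read count made comparable between libraries of different size, here by TMM factors from edgeR) in wild-type CAD soma to 93.8 in knockout soma and from 509 to 138 in neurites. In N2A cells it fell from 579 to 169 CPM in soma and from 683 to 257 in neurites, and the reads of the transgene and of the endogenous gene cannot be told apart here. Of 10 neuronal and catecholaminergic markers, 7 to 9 reached 1 TPM (a level per transcript length and library size) in each group, with Ddc under 1 TPM in every CAD group and Th under 1 TPM in every N2A group. Of 8 markers of astrocytes, oligodendrocytes, microglia and mesenchymal cells, 0 to 5 reached 1 TPM, with summed levels of 1.79 to 28.4 TPM, and Aqp4 and Cx3cr1 were under 1 TPM in every group.

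The localization ratio (LR) compares the compartments as log2(neurite CPM / soma CPM), so that 0 is near the median gene under this scaling. In wild-type CAD cells the LR of Brsk1 was 0.35 ± 0.10 (SD, n = 3 soma and 3 neurite libraries) and that in knockout cells was -0.38 ± 0.08, and that of Aldh7a1 went from 0.45 ± 0.12 to -0.32 ± 0.08. Tbl1x went from 0.02 ± 0.10 to -0.49 ± 0.04 and Gsk3b from -0.23 ± 0.09 to -0.65 ± 0.07. Zfp652 went from -0.45 ± 0.07 to -0.89 ± 0.08 and Peg10 from -0.31 ± 0.19 to -0.91 ± 0.17. Brsk1 and Aldh7a1 thus started above the median gene and ended below it in CAD cells, Tbl1x started at it within its SD, and the other 3 started below it.

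In N2A cells Brsk1 went from 0.31 ± 0.11 to -0.21 ± 0.12, Gsk3b from 0.17 ± 0.12 to -0.51 ± 0.09 and Aldh7a1 from 0.52 ± 0.14 to 0.02 ± 0.07 (SD, n = 3 soma and 3 neurite libraries). Tbl1x, at 0.55 ± 0.16, was the most neurite-enriched of the 6 RNAs in wild-type N2A cells and stayed above 0 in knockout cells at 0.11 ± 0.15. Zfp652 went from -0.51 ± 0.09 to -0.96 ± 0.09 and Peg10 from -0.22 ± 0.15 to -0.89 ± 0.10. Zfp652 and Peg10 therefore had no neurite enrichment to lose in either line, since they were soma-enriched relative to the median gene before TDP-43 was lost, and the description of the 6 RNAs as losing neurite enrichment holds in the sense of a lower ratio.

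**Figure D1:**
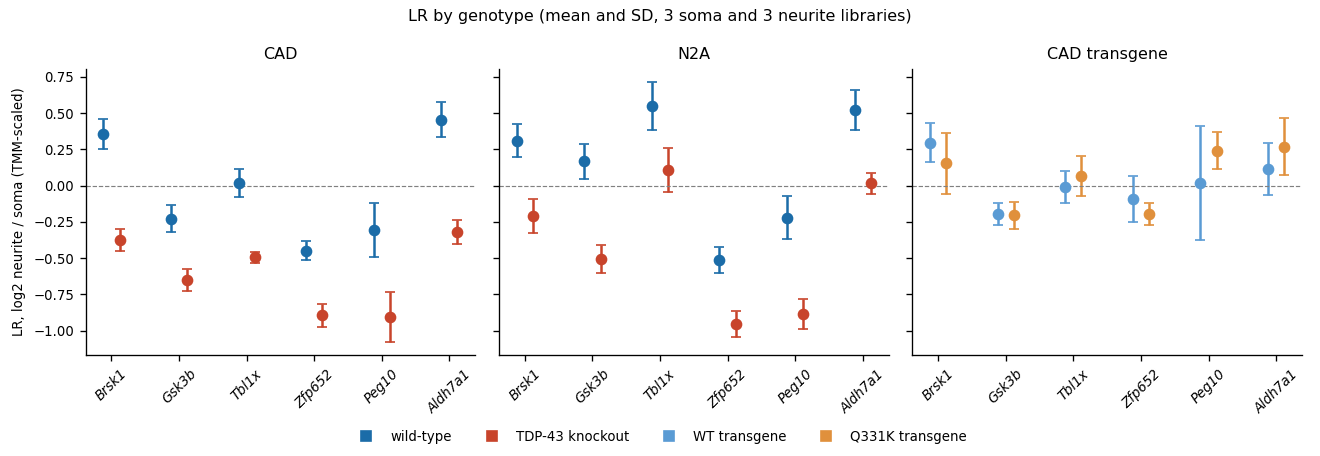
LR (log2 neurite over soma, TMM-scaled) of the 6 RNAs in CAD, N2A and CAD transgene cells, as points for the mean and bars for the SD from 3 soma and 3 neurite libraries per genotype. Knockout points lie below the wild-type points for all 6 RNAs in both lines, from a change of -0.43 (Gsk3b in CAD) to -0.77 (Aldh7a1 in CAD), while the WT and Q331K transgene points of each RNA have overlapping bars.

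The change in LR, fitted with edgeR over all genes, was -0.73 (SE 0.09) for Brsk1, -0.43 (0.09) for Gsk3b, -0.51 (0.08) for Tbl1x, -0.44 (0.08) for Zfp652, -0.59 (0.13) for Peg10 and -0.77 (0.10) for Aldh7a1 in CAD cells, where the median of all genes was -0.01. In N2A cells it was -0.52 (SE 0.11), -0.67 (0.11), -0.44 (0.13), -0.44 (0.10), -0.67 (0.11) and -0.50 (0.12) in the same order, with a median of -0.01. At a false discovery rate (FDR) of 0.05, LR was lower for 100 of 17343 genes in CAD cells (0.577%) and for 955 of 17912 in N2A cells (5.33%), and it was lower in both lines for 7 of 16200 genes (0.0432%). These 7 were the 6 RNAs and Sos2 (-0.60 in CAD and -0.89 in N2A cells). The genes next outside were Pim2 (-0.62 and -0.67), Ccnd1 (-0.41 and -0.58) and Apba1 (-0.46 and -0.52), whose changes were of the same size as those of the 6 RNAs. The edge of the group is thus set by the threshold rather than by a gap in the values.

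Membership also moved with the libraries used. When libraries numbered 1, 2 or 3 were left out, 2, 0 and 6 of the 6 RNAs remained under an FDR of 0.05 in CAD cells, against 1, 0 and 0 in the N2A line. With all libraries, 5 remained in CAD cells on length-scaled counts and with upper-quartile scaling and 4 with no filter on low counts, and in N2A cells 3 remained on length-scaled counts and 4 with upper-quartile scaling. LR was lower for all 6 in each of these fits. The fits reuse the libraries on which the RNAs were chosen, so this is no independent support. The size of the change depended on the scaling. On TPM with no scaling factor, the median LR of all genes was -1.77 in wild-type CAD and -1.68 in wild-type N2A cells, and the median gene gained 0.38 and 0.36 in the knockouts. On that scale the changes of the 6 RNAs ranged from -0.49 (Aldh7a1, SD 0.54) to -0.10 (Zfp652, SD 0.46) in CAD cells. In N2A cells they ranged from -0.59 (Gsk3b, SD 0.70) to 0.012 (Aldh7a1, SD 0.88, which did not fall). Each mean change remained below that of the median gene, but the SDs given here were larger than the changes. Fewer neurites in a fraction and less RNA per neurite cannot be told apart in these bulk libraries.

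The same fall of LR was reached in different ways in the compartments. The levels are given next for each RNA in every library, as TMM-scaled CPM. The level averaged over soma and neurites was then tested between knockout and wild-type cells, because this average does not use the difference between compartments on which the RNAs were chosen. The average still comes from the same libraries, and a change in a single compartment shifts both it and LR. It is therefore not wholly free of the choice. The test was chosen after seeing the data. It called 5 of the 6 RNAs in CAD cells, where 45.6% of genes were called, and 4 of the 6 in N2A cells, where 29.5% were called (edgeR quasi-likelihood test, FDR 0.05). Over all genes the N2A calls dropped from 5286 to 2089 without replicate 2. Wild-type and knockout libraries did not overlap for 6 of the 6 RNAs in CAD soma (43.9% of genes), 4 in CAD neurites (46.6%), 5 in N2A soma (42.1%) and 4 in N2A neurites (37.5%). Choosing on LR favours RNAs whose level moved in soma or in neurites, so these overlap counts are a description and not a test.

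**Figure D2:**
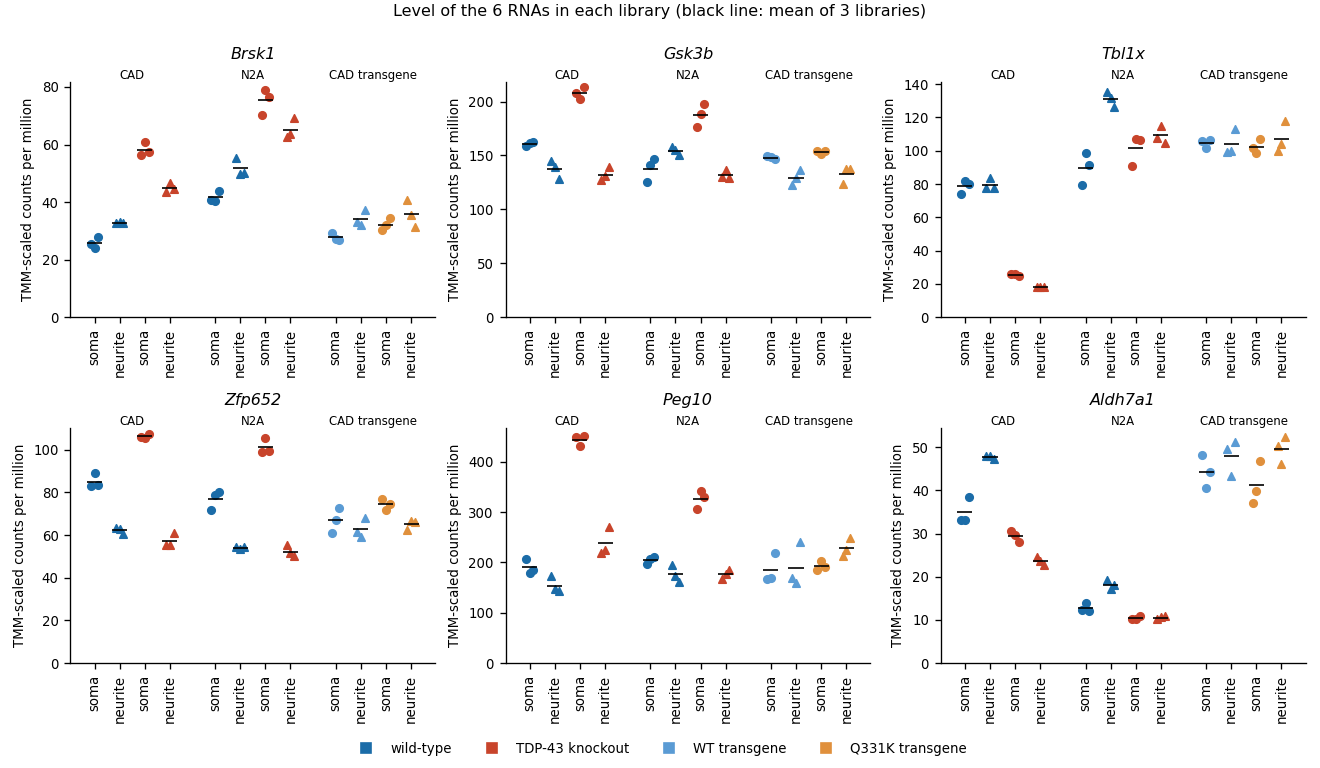
TMM-scaled CPM (linear axis from 0) of the 6 RNAs in each of 36 libraries, with soma as circles, neurites as triangles and a black line at the mean of 3 libraries. In CAD knockout libraries Tbl1x lies at 17.9 to 25.9 CPM against 73.9 to 83.6 CPM in wild-type libraries, and Peg10 in CAD knockout soma lies at 431 to 452 CPM against 179 to 207 CPM in wild-type soma.

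Brsk1 stood at 25.4, 24.2 and 27.8 CPM in wild-type CAD soma and at 56.4, 60.8 and 57.5 CPM in knockout soma. The CAD neurite libraries gave 32.7, 33.2 and 32.7 CPM in wild-type and 43.4, 46.5 and 44.5 CPM in knockout cells. Every knockout library was above every wild-type library in both compartments, with a wider gap in soma than in neurites. The log2 change was 1.18 (SE 0.06) in soma and 0.45 (SE 0.07) in neurites, and the averaged level rose by 0.81 (SE 0.05), or 1.75-fold (edgeR adjusted p = 6.3e-10).

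In N2A cells Brsk1 stood at 40.7, 40.3 and 44.0 CPM in wild-type soma, and at 70.4, 78.9 and 76.7 CPM in knockout soma. The neurite libraries gave 55.4, 49.7 and 49.9 CPM in wild-type and 62.5, 63.6 and 69.4 CPM in knockout cells. The groups were again apart in both compartments and in the same direction. The log2 change was 0.85 (SE 0.08) in soma and 0.34 (SE 0.08) in neurites, and the averaged level rose by 0.60 (SE 0.06, edgeR adjusted p = 9.1e-07). The lower LR of this kinase RNA in both lines thus came with a higher, not lower, scaled level in neurites, which is relative to other genes in the library.

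Gsk3b stood at 159, 162 and 162 CPM in wild-type CAD soma and at 208, 203 and 213 CPM in knockout soma. In CAD neurites it stood at 145, 140 and 128 CPM in wild-type cells and 127, 131 and 139 CPM in knockout cells. Soma levels were higher in each knockout library, while the neurite libraries overlapped. In N2A cells the soma libraries held 125, 141 and 146 CPM in wild-type and 177, 188 and 198 CPM in knockout cells. The N2A neurite libraries held 158, 155 and 151 CPM in wild-type and 130, 137 and 129 CPM in knockout cells. In this line the groups were apart in both compartments and in opposite directions. The log2 changes were 0.37 (SE 0.06) in soma and -0.06 (0.06) in neurites of CAD cells and 0.45 (0.07) and -0.23 (0.07) in N2A cells. The averaged level rose in CAD cells by 0.16 (SE 0.04, edgeR adjusted p = 0.0075) and was 0.11 (0.05, adjusted p = 0.13) in N2A cells. These directions depend on the transcripts counted, since on counts scaled to transcript length the averaged level fell by 0.51 in CAD (edgeR adjusted p = 6.2e-07) and by 0.30 in N2A cells (adjusted p = 0.0019), and the CAD call of a rise was lost without replicate 2 (0.17, adjusted p = 0.089), without replicate 3 (0.11, adjusted p = 0.12) and with no filter on low counts (0.14, adjusted p = 0.12).

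Tbl1x showed the largest averaged level change of the 6 RNAs, in CAD cells. The wild-type CAD libraries held 73.9, 81.7 and 80.1 CPM in soma and 77.5, 83.6 and 77.7 CPM in neurites. The knockout libraries held 25.7, 25.9 and 24.6 CPM in soma and 18.0, 17.9 and 18.1 CPM in neurites. All knockout libraries were far below all wild-type libraries. The log2 change was -1.63 (SE 0.06) in soma and -2.14 (0.06) in neurites, and the averaged level fell by 1.89 (SE 0.04), or 3.70-fold (edgeR adjusted p = 2.3e-14).

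In N2A cells Tbl1x stood at 79.5, 98.4 and 91.6 CPM in wild-type soma and at 90.6, 107 and 106 CPM in knockout soma. The neurite libraries held 135, 132 and 126 CPM in wild-type and 108, 115 and 105 CPM in knockout cells. The soma groups overlapped and the neurite groups did not. The log2 change was 0.18 (SE 0.09) in soma and -0.26 (0.09) in neurites, and the averaged change was -0.04 (SE 0.06, 95% interval -0.18 to 0.09, edgeR adjusted p = 0.64). Its sign turned on length-scaled counts (0.026) and without replicate 2 (0.012).

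Zfp652 stood at 83.0, 89.0 and 83.3 CPM in wild-type CAD soma and at 106, 106 and 107 CPM in knockout soma. The CAD neurite libraries held 63.4, 62.7 and 60.7 CPM in wild-type and 55.5, 55.3 and 60.8 CPM in knockout cells. In soma the groups were apart and in neurites 1 knockout library reached the lowest wild-type library. In N2A soma the wild-type libraries held 71.7, 78.9 and 80.2 CPM and the knockout libraries 98.9, 105 and 99.5 CPM. In N2A neurites they held 54.2, 53.3 and 54.2 CPM and 55.2, 51.4 and 50.1 CPM, which overlapped. The log2 changes were 0.32 (SE 0.05) in soma and -0.12 (0.06) in neurites of CAD cells and 0.40 (0.07) and -0.05 (0.07) in N2A cells. The averaged change was 0.10 (SE 0.04, edgeR adjusted p = 0.051) in CAD cells and a rise of 0.18 (0.05, adjusted p = 0.015) in N2A cells. The CAD change was called with DESeq2 (adjusted p = 0.047), with upper-quartile scaling (0.038) and with a filter of at least 10 counts in every library (0.029). On length-scaled counts it fell by 0.29 in CAD cells (edgeR adjusted p = 9.2e-05) and was -0.0032 in N2A cells, and the N2A call was lost without replicate 1 (adjusted p = 0.080) and without replicate 2 (adjusted p = 0.19). Exons of Zfp652 share bases with Phospho1 on the same strand and Abi3 on the other, so a part of these counts is uncertain.

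Peg10 stood at 207, 179 and 184 CPM in wild-type CAD soma and at 449, 431 and 452 CPM in knockout soma. In CAD neurites it stood at 172, 146 and 143 CPM in wild-type and 218, 225 and 270.4 CPM in knockout cells. Both compartments were higher in every knockout library. In N2A soma the libraries held 197, 206 and 211 CPM in wild-type and 306, 341 and 330.2 CPM in knockout cells. In N2A neurites they held 195, 173 and 161 CPM in wild-type and 168, 176 and 184 CPM in knockout cells. The N2A neurite libraries thus overlapped where the soma libraries were apart. The log2 changes were 1.22 (SE 0.09) in soma and 0.63 (0.09) in neurites of CAD cells, against 0.67 (0.08) and 0.0011 (0.081) in N2A cells. The averaged level rose by 0.93 (SE 0.07, 1.90-fold, edgeR adjusted p = 9.2e-09) in CAD cells and by 0.34 (0.06, 1.26-fold, adjusted p = 0.00036) in N2A cells.

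Aldh7a1 (ENSMUSG00000053644) stood at 33.2, 33.1 and 38.4 CPM in wild-type CAD soma and at 30.7, 29.6 and 28.1 CPM in knockout soma. The CAD neurite libraries held 47.9, 48.1 and 47.3 CPM in wild-type and 24.5, 23.5 and 22.7 CPM in knockout cells. The knockout libraries were lower in both compartments and by more in neurites. In N2A soma the libraries held 12.2, 13.8 and 11.97 CPM in wild-type and 10.1, 10.3 and 10.8 CPM in knockout cells. In N2A neurites they held 19.2, 17.2 and 18.0 CPM in wild-type and 10.1, 10.6 and 10.9 CPM in knockout cells. The same order held in this line. The log2 changes were -0.25 (SE 0.07) in soma and -1.02 (0.07) in neurites of CAD cells, and -0.28 (0.09) and -0.78 (0.09) in N2A cells. The averaged level fell by 0.63 (SE 0.05, edgeR adjusted p = 3.3e-08) in CAD cells and by 0.53 (0.06, adjusted p = 9.8e-06) in N2A cells. Exons of Aldh7a1 share bases with Phax on the other strand, and the strand setting of the quantification is not given in the sources used here.

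**Figure D3:**
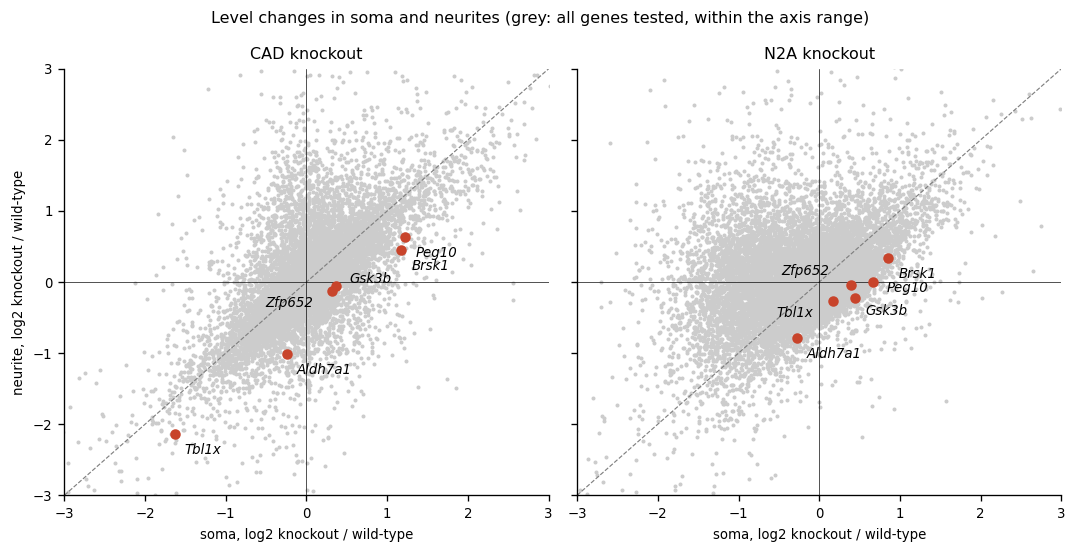
Log2 change of level, knockout over wild-type, in soma (horizontal) and neurites (vertical) for the 6 RNAs (red) and all genes tested within the axis range (grey), with the dashed line at equal change. All 6 RNAs lie below the dashed line in both lines, at soma changes from -1.63 (Tbl1x) to 1.22 (Peg10) in CAD cells and from -0.28 (Aldh7a1) to 0.85 (Brsk1) in N2A cells.

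Apart from Tbl1x in N2A cells, where only the neurite libraries were apart and lower, the levels fell into 3 patterns. Brsk1 was higher in both compartments of both lines, by more in soma, as was Peg10 in CAD cells. Gsk3b and Zfp652 were higher in soma and not in neurites on these counts, as was Peg10 in N2A cells. Aldh7a1 was lower in both compartments, by more in neurites, and Tbl1x shared this pattern in CAD cells.

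Whether the averaged level changed differently in the lines was tested in 1 edgeR fit of the 24 CAD and N2A libraries, a test chosen after seeing the data, in which 26% of 19700 genes were called (5114 genes, but 2255 without replicate 2 and 3301 without replicate 3). The change was lower in CAD than in N2A cells for Tbl1x, by -1.91 (SE 0.08, 95% interval -2.08 to -1.74, edgeR adjusted p = 3.5e-14). For Peg10 it was higher in CAD cells, by 0.52 (SE 0.09, 95% interval 0.34 to 0.70, adjusted p = 6.1e-05). The other 4 were not called, with differences of 0.15 for Brsk1 (interval -0.0030 to 0.30), -0.02 for Gsk3b (-0.17 to 0.12), -0.14 for Zfp652 (-0.27 to -0.01) and -0.17 for Aldh7a1 (-0.33 to -0.01) and adjusted p of 0.12 to 0.88. The Brsk1 difference was called under upper-quartile scaling (0.27, adjusted p = 0.00070) and RLE scaling (0.19, adjusted p = 0.038), and those of Gsk3b (-0.22, adjusted p = 0.029) and Zfp652 (-0.30, adjusted p = 0.0075) on length-scaled counts. The changes in LR, on which the RNAs were chosen, differed between the lines by -0.24 (Aldh7a1) to 0.27 (Gsk3b), which is given as a description.

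Transcript usage, the share of a gene's RNA held by each of its transcripts, was tested over all transcripts of genes with at least 2. A share does not use the gene totals on which the choice rested. Losing a neurite-enriched transcript can still lower a gene's LR, so usage is not wholly free of the choice. In edgeR's test 2.99% of 41801 transcripts were called in CAD cells and 1.42% of 41615 in N2A cells. A second test, limma on the log odds of a transcript against the rest of its gene, was added after seeing the data, because edgeR's test made many false calls in simulated data, and it called 5.05% and 1.53%. The clearest change among the 6 RNAs was in Gsk3b. Gsk3b-201 (8303 nt) has the 5515 nt 3′ UTR with the GT repeat printed above, and Gsk3b-202 (1750 nt) ends in a 3′ UTR of 210 nt with no match to the 5mers. Gsk3b-202 also includes a coding exon of 39 nt, its exon 9 of 12, at chr16:38217113-38217151, which Gsk3b-201 lacks. Its first 30 bases (chr16:38217113-38217142) are shown because they tell the transcripts apart.
Gsk3b-202 exon 9: gactcaccaggagcaggacatttcacccca

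Gsk3b-202 held 47.2%, 51.1% and 53.0% of the gene's TPM in wild-type CAD soma and 20.4%, 23.95% and 19.5% in knockout soma. In CAD neurites it held 60.6%, 61.2% and 59.6% in wild-type and 17.2%, 20.3% and 21.8% in knockout cells. The groups were far apart in both compartments, and the short form went from the main transcript of neurites to a minor one. In N2A soma it held 40.7%, 40.8% and 36.4% in wild-type and 16.0%, 21.6% and 19.02% in knockout cells. In N2A neurites it held 55.6%, 55.5% and 53.3% in wild-type and 16.4%, 11.9% and 16.98% in knockout cells. The change was thus of like size in both lines. Its usage fell by 2.09 on the log2 scale in CAD cells (edgeR adjusted p = 1.6e-16) and by 1.93 in N2A cells (adjusted p = 2.5e-09), and the log odds test gave -2.49 (limma adjusted p = 1.7e-05) and -2.19 (adjusted p = 0.00033). The call held in both lines under all alternatives that were run. Gsk3b-201 and Gsk3b-202 differ both in that coding exon and in the 3′ UTR. Shares of annotated transcripts cannot tell a change of the exon from a change of the 3′ UTR, and which of them changed was not tested. The mean lengths given next rest on the annotated lengths of the transcripts. The mean length of Gsk3b RNA, weighted by TPM, went from 4100 to 6273 nt in CAD soma and from 3724 to 6667 nt in CAD neurites, and 0.387% and 0.324% of genes had a larger increase. In N2A cells it went from 5125 to 6797 nt in soma and from 4569 to 7173 nt in neurites.

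Both forms of Gsk3b were lower in knockout than in wild-type cells in LR, which is given as a description. The LR of Gsk3b-202 went from 0.17 ± 0.14 to -0.83 ± 0.30 in CAD cells and from 0.84 ± 0.17 to -0.88 ± 0.38 in N2A cells (SD, n = 3 soma and 3 neurite libraries). That of Gsk3b-201 went from -0.36 ± 0.09 to -0.62 ± 0.08 and from 0.05 ± 0.17 to -0.48 ± 0.11. The short form was therefore the more neurite-enriched of the pair in wild-type cells and was no longer so in knockout cells. In wild-type N2A cells its share was higher in neurites than in soma by 0.83 on the log2 odds scale (limma adjusted p = 0.028), while in wild-type CAD cells the difference was 0.56 (adjusted p = 0.10), where 36% and 14.8% of transcripts were called.

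**Figure D4:**
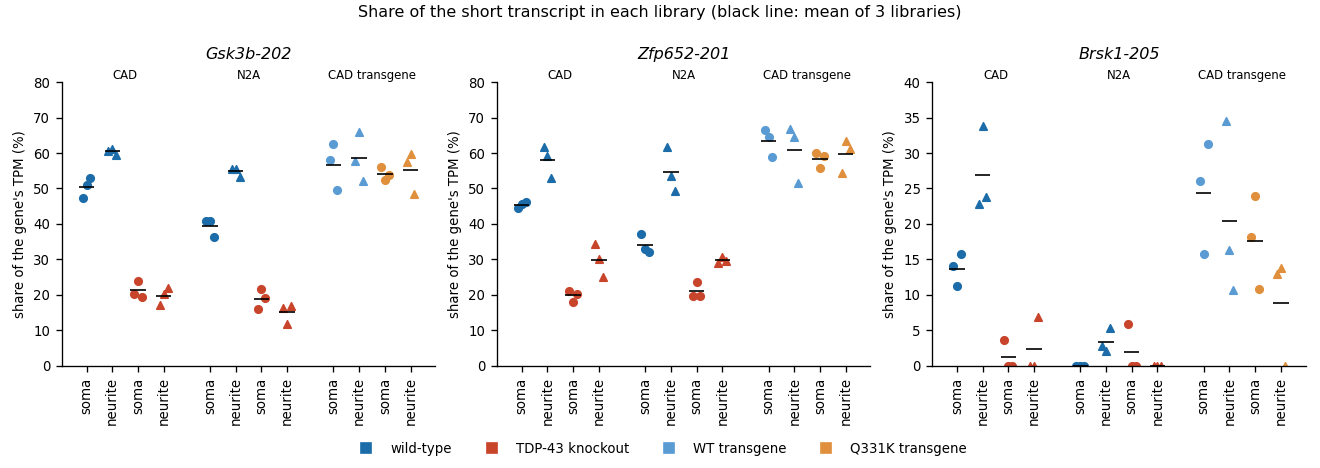
Share of the gene's TPM (percent, linear axis from 0) held by Gsk3b-202, Zfp652-201 and Brsk1-205 in each library, with soma as circles, neurites as triangles and a black line at the mean of 3 libraries. In the knockouts Gsk3b-202 falls to 11.9 to 23.95% in CAD and N2A cells, while in the transgene cells it stays between 48.3% and 66.0%.

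Zfp652 also showed a shift of usage, between Zfp652-201 (2663 nt, 3′ UTR of 652 nt with 4 matches) and Zfp652-202 (10433 nt, 3′ UTR of 8294 nt with 72 matches). Unlike the Gsk3b pair, both have a coding sequence of 1827 nt. They also start at different positions (chr11:95749067 and chr11:95712673) and have 5 and 6 exons. A change at the 5′ end and a change of the 3′ UTR cannot be told apart from these shares. Zfp652-201 held 44.5%, 45.7% and 46.1% of TPM in wild-type CAD soma and 21.2%, 18.0% and 20.3% in knockout soma. In CAD neurites it held 61.6%, 59.3% and 52.8% in wild-type and 34.3%, 30.1% and 25.1% in knockout cells. The groups were apart in both compartments. In N2A cells it held 32.1 to 37.2% in wild-type and 19.6 to 23.7% in knockout soma, and 49.3 to 61.6% in wild-type and 29.02 to 30.5% in knockout neurites. The N2A groups were apart as well. Its usage fell by 1.46 on the log2 scale in CAD cells (edgeR adjusted p = 2.1e-05, log odds adjusted p = 0.00027, and 0.055 in the log odds test without replicate 2). In N2A cells it was -1.02 (edgeR adjusted p = 0.10), and the log odds test called it at -1.20 (limma adjusted p = 0.011). Between compartments of wild-type cells, the share of Zfp652-201 was higher in N2A neurites by 1.32 on the log2 odds scale (limma adjusted p = 0.0037) and was 0.75 in CAD cells (adjusted p = 0.053). The LR of Zfp652-201 went from 0.11 ± 0.20 to -0.16 ± 0.24 in CAD and from 0.55 ± 0.29 to -0.26 ± 0.28 in N2A cells, and that of Zfp652-202 from -0.67 ± 0.07 to -0.99 ± 0.09 and from -0.84 ± 0.14 to -1.10 ± 0.08 (SD, n = 3 soma and 3 neurite libraries).

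Brsk1-205 (1216 nt, with a 3′ UTR of 184 nt and no match), a short annotated form of the kinase transcript, changed in CAD cells. Its coding sequence of 1032 nt and its 3′ UTR fill the whole entry, which holds no 5′ UTR. This entry may therefore be incomplete, and its share of TPM depends on its annotated length. It held 14.03%, 11.2% and 15.8% of TPM in wild-type CAD soma and 3.61%, 0% and 0% in knockout soma. In CAD neurites it held 22.9%, 33.9% and 23.8% in wild-type and 0%, 0% and 6.88% in knockout cells. Its usage fell by 3.73 on the log2 scale (edgeR adjusted p = 0.0020, log odds adjusted p = 0.031), but edgeR's call was lost without replicate 2 (-3.04, adjusted p = 0.19) and the log odds call without replicate 1, 2 or 3 (adjusted p of 0.10, 0.37 and 0.11). In N2A cells it was at 0 in the 3 wild-type soma libraries and held at most 5.81% elsewhere, and it was not called there (edgeR adjusted p = 1.0, log odds adjusted p = 0.48), except in the log odds test without replicate 1 (-3.43, adjusted p = 0.019). The counts are few, at a mean of 1.79 to 4.49 CPM in wild-type CAD cells.

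Tbl1x-202, a retained-intron transcript, held 5.92%, 5.33% and 4.86% of Tbl1x TPM in wild-type CAD soma and 14.2%, 13.7% and 13.8% in knockout soma. In CAD neurites it held 1.96 to 2.81% in wild-type and 5.18 to 7.45% in knockout cells. Its share was higher in every knockout library, while its own mean level did not rise (2.85 CPM in wild-type and 2.44 CPM in knockout soma), since Tbl1x-201 dropped from 75.7 to 22.9 CPM there. The edgeR test gave 1.44 (adjusted p = 0.17) and the log odds test called it (1.51, limma adjusted p = 0.00073), though not without replicate 1 (adjusted p = 0.0503) or replicate 2 (adjusted p = 0.078). In N2A cells the share went from 8.04% ± 0.48 to 4.28% ± 0.41 in soma and from 2.35% ± 0.28 to 3.05% ± 0.36 in neurites (SD, n = 3), with a log odds change of -0.31 over both compartments (limma adjusted p = 0.43). In wild-type cells the retained-intron form was the more soma-enriched, with a neurite to soma difference of -1.26 on the log2 odds scale in CAD (limma adjusted p = 0.0094) and -1.85 in N2A cells (adjusted p = 0.00046).

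No transcript of Peg10 or Aldh7a1 described here was called for usage. Peg10-202 held at least 87.0% of Peg10 TPM in each of the 36 libraries. Aldh7a1-201 and Aldh7a1-208 were not called in either line, with log odds changes of 0.08 and -0.22 in CAD and -0.06 and -0.21 in N2A cells (limma adjusted p of 0.60 to 0.96). Aldh7a1-202, a retained-intron transcript, held 8.58%, 9.84% and 6.69% of TPM in wild-type CAD soma and 18.1%, 16.5% and 9.22% in knockout soma, and it held 0%, 0% and 1.5% in wild-type N2A neurites and 3.21%, 4.83% and 14.8% in knockout N2A neurites. Its share overlapped between genotypes in CAD soma and was higher in the 3 knockout libraries of N2A neurites, with log odds changes of 0.94 in CAD (limma adjusted p = 0.14, edgeR adjusted p = 0.99) and 1.36 in N2A cells (limma adjusted p = 0.17, edgeR adjusted p = 0.83). In wild-type cells this form was soma-enriched relative to the rest of the gene, by -1.77 on the log2 odds scale in CAD (limma adjusted p = 0.028) and -4.61 in N2A cells (adjusted p = 0.00056). Aldh7a1-203 was at 0 in every CAD neurite library and every N2A knockout library, and it was not called in CAD cells (edgeR adjusted p = 1.0, log odds adjusted p = 0.88) or tested in N2A cells.

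The Q331K libraries were not used to choose the 6 RNAs, so each contrast could be tested there. Brsk1 stood at 29.1, 27.3 and 26.8 CPM in WT transgene soma and at 30.2, 32.0 and 34.5 CPM in Q331K transgene soma. In neurites it stood at 32.9, 32.0 and 37.4 CPM and at 40.7, 35.6 and 31.5 CPM. Its soma groups were apart by a small step and its neurite groups overlapped. Gsk3b stood at 149, 148 and 147 CPM in WT transgene soma and at 154, 152 and 154 CPM in Q331K transgene soma, again apart by a small step. The other 4 RNAs overlapped between the transgenes in both compartments, so that 2 of the 6 RNAs were apart in soma, where 14.1% of genes were, and 0 in neurites, where 13.8% were.

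The change in LR with Q331K was -0.14 for Brsk1 (95% interval -0.44 to 0.15), -0.01 for Gsk3b (-0.21 to 0.19), 0.07 for Tbl1x (-0.16 to 0.31), -0.10 for Zfp652 (-0.34 to 0.13), 0.21 for Peg10 (-0.19 to 0.61) and 0.15 for Aldh7a1 (-0.15 to 0.44). None was called (edgeR adjusted p = 0.9986 for each), and 0 of 13940 genes were called at all (0%), with 605 at an unadjusted p under 0.05 and 0 in DESeq2. The lower end of each interval lay above the LR change of the same RNA in the CAD knockout and in the N2A knockout. These intervals are for each gene alone. The knockout values are those on which the RNAs were chosen, and they have errors of their own. The comparison is thus no test of a difference between Q331K and knockout.

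Levels did not pass the test either. In soma the change ranged from -0.10 (Aldh7a1, interval -0.31 to 0.11) to 0.22 (Brsk1, interval 0.01 to 0.43, edgeR adjusted p = 0.67), with 0 genes called (0%), 995 at an unadjusted p under 0.05 and 11 in DESeq2. In neurites it ranged from 0.04 (Gsk3b) to 0.27 (Peg10, interval -0.01 to 0.55, adjusted p = 0.54), with 0 genes called (0%), 1372 at an unadjusted p under 0.05 and 47 in DESeq2. Transcript usage of Gsk3b-202 was -0.19 (edgeR adjusted p = 1.0) and that of Zfp652-201 -0.16 (adjusted p = 1.0), where 0.486% of 29230 transcripts were called.

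In WT transgene cells the LR of Brsk1 was 0.30 (SE 0.10, edgeR adjusted p = 0.024) and that of Gsk3b -0.19 (0.07, adjusted p = 0.031), where 39.5% of genes were called. The Brsk1 call was lost on length-scaled counts (0.17, adjusted p = 0.26) and without any 1 replicate number (adjusted p up to 0.12), and that of Gsk3b without replicate 1 (-0.15, adjusted p = 0.27) or 2 (-0.19, adjusted p = 0.16) and with no filter on low counts (-0.21, adjusted p = 0.086). Tbl1x (-0.01), Zfp652 (-0.09), Peg10 (0.03) and Aldh7a1 (0.11) were not called. Brsk1 above 0 and Gsk3b below 0 is the order that wild-type CAD cells of the knockout line also had, at 0.35 and -0.23. Aldh7a1, at 0.45 in those wild-type cells, was at 0.11 (interval -0.10 to 0.32) in the WT transgene cells. Zfp652, at -0.45 in those wild-type cells, was at -0.09 (interval -0.25 to 0.07) in the WT transgene cells. Peg10 was at -0.31 and at 0.03 (interval -0.25 to 0.32). The lower LR of Zfp652 and Peg10 than the median gene was thus not called in this other CAD set.

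The pathways in which the 6 RNAs act were followed with lists of other genes. Of 18 Wnt and beta-catenin genes, LR rose for 2 and fell for 1 in CAD knockout cells, where 0.98% of all genes were called in either direction. These were Csnk1e, a casein kinase of the pathway (1.72, SE 0.10, edgeR adjusted p = 4.2e-08), the scaffold Apc2 (0.74, SE 0.15, adjusted p = 0.029) and Ctnnb1, which encodes beta-catenin (-0.50, SE 0.11, adjusted p = 0.035). In N2A knockout cells, where 8.46% of genes were called, 2 rose and 2 fell. There the scaffolds Apc (1.08, adjusted p = 0.022) and Amer1 (0.84, adjusted p = 0.014) gained LR, while the kinases Gsk3a (-0.52, adjusted p = 0.035) and Csnk1a1 (-0.44, adjusted p = 0.046) lost it. Gsk3a, the paralogue of Gsk3b, thus moved the same way as Gsk3b in N2A cells. The median of the list was -0.13 in CAD and -0.19 in N2A cells, against -0.01 for all genes in both.

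Of the LKB1 and AMPK-related kinase genes around Brsk1, 0 of 15 changed in LR in CAD cells and 1 of 14 fell in N2A cells, Cab39l, an LKB1 partner (-0.47, edgeR adjusted p = 0.041), with medians of -0.15 and -0.20. Of 8 NCoR and ETO corepressor genes around Tbl1x and Zfp652, 0 changed in CAD cells, with a median of -0.05. Among imprinted and retroelement-derived genes, 0 of 16 changed in CAD cells and 3 of 14 fell in N2A cells, all of the retrotransposon-derived Rtl group, at -0.73 for Rtl8a (adjusted p = 0.029), -0.57 for Rtl6 (0.039) and -0.65 for Rtl8b (0.048), with list medians of -0.10 and -0.03. Among lysine catabolism and aldehyde dehydrogenase genes, 0 of 16 changed in CAD cells, and Aldh9a1 (-0.41, adjusted p = 0.039) and Aldh2 (-0.45, adjusted p = 0.047) of 16 fell in N2A cells, with medians of -0.14 and -0.21. No gene of these lists was called for LR change with Q331K, where 0 genes were called in all.

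As a description of likeness, the log2 CPM of each RNA was correlated with 13231 genes over the 36 libraries after the mean of each experiment was subtracted. The nearest genes were Cacng7 (r = 0.91) and Slit3 (0.90) for Brsk1, Hipk1 (0.90) and Arid1b (0.87) for Gsk3b, Tarsl2 (0.97) and Washc2 (0.96) for Tbl1x, Tbc1d16 (0.97) and Helz (0.94) for Zfp652, Dop1b (0.90) and Myh9 (0.89) for Peg10, and Gpd1l (0.87) and Stub1 (0.86) for Aldh7a1. Among the 6 RNAs the closest pair was Gsk3b and Zfp652 (r = 0.82), and the most opposed was Brsk1 and Tbl1x (r = -0.60). The libraries share compartment, line and genotype, which all enter these values.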

How the data were processed

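Per the submitters' processing notes, the authors trimmed reads with cutadapt and ran Salmon against mm10 transcripts (versions not given in the sources used here). For each transcript the authors deposited a TPM and an estimated count. The index held 135181 transcripts, and 133618 for the transgene cells. Estimated counts were summed to genes with GENCODE vM21, the paper naming Gencode version 17, and rounded, and at most 0.129% of a library fell on transcripts without a gene. Of 86 samples in the series, 50 were not used here.

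Levels, LR and its change were fitted with edgeR 4.0.16 in R 4.3.3 (TMM, filterByExpr, glmQLFit, glmQLFTest, Benjamini-Hochberg adjustment over all genes, FDR 0.05), within each experiment over its 4 groups. Transcript usage was tested with diffSpliceDGE and with limma 3.58.1 on log odds. DESeq2 1.42.0 was an alternative. Other steps used Python 3.11.15, pandas 2.3.3, numpy 2.4.6 and matplotlib 3.10.9. The fits were tested on simulated data, in which edgeR's usage test often called unchanged transcripts and the log odds test rarely did. Of 200 genes given a log2 LR change of 0.5, 21% were recovered in CAD, 0% in N2A and 8% in the transgene set. At a change of 1, 75.5%, 72.5% and 73% were recovered. Of 200 transcripts changed by 1, the log odds test recovered 0% in each set and edgeR's test 15%, 8% and 0%. A missing call therefore does not show that small changes were absent. TPM LRs used a pseudocount of 0.01.

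The 6 RNAs and the gene lists were chosen with earlier results of these data known. Genes named are the 6, Tardbp, those at the edge of the choice, the nearest 2 by correlation, transcripts with at least 10% of a gene's TPM, and list genes called for LR (at most 4 per list and comparison, and 1 of them is not reported here). The averaged level, the difference between lines, the log odds test, usage between compartments, and TPM or library-size scaling were chosen after seeing the data. Other alternatives were upper-quartile and RLE scaling, other count filters, length-scaled counts, a replicate block, an FDR of 0.01 and leaving out each replicate number.

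No label ties the replicate numbers to shared cultures, so p-values measure the spread between these libraries, which may be technical. Deviations from group means correlated between genotypes of the same number at r = 0.19 to 0.43 in N2A cells, so there the numbers were read as pairs. In CAD cells they did so in soma (0.21 to 0.57) but not for every pair above 0.1 in neurites (0.09 to 0.48). Between soma and neurites they did so in wild-type cells (0.35 to 0.51 in CAD and 0.17 to 0.43 in N2A cells) and not for every pair in knockout cells (-0.04 to 0.28 and 0.08 to 0.47). In CAD cells the numbers were therefore read as pairs only between the soma groups and within wild-type cells. The main tests and the SDs of LR nevertheless treated all libraries as unpaired. Replicate numbers entered a model only in the replicate block.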

Additional observations from a re-analysis of the deposited data

Results flagged for a closer look

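The averaged level change after TDP-43 loss differed between the knockout lines, by a test of the difference itself, for Tbl1x (-1.91 on the log2 scale, CAD minus N2A, edgeR adjusted p = 3.5e-14) and for Peg10 (0.52, adjusted p = 6.1e-05). For Tbl1x the 6 knockout libraries lay below the 6 wild-type libraries in CAD cells, and the N2A soma libraries overlapped between genotypes. For Peg10 the averaged level rose in both lines and by more in CAD cells. The difference ranged over the alternatives from -1.98 to -1.79 for Tbl1x and from 0.47 to 0.64 for Peg10, and each was called in all of them. Line and clone cannot be told apart here. With 3 libraries per group, no single library could be tested as standing apart.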

How the results depend on the processing

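LR was lower in the knockouts for all 6 RNAs in every fit, except for Aldh7a1 in N2A cells on unscaled TPM (0.012). These fits reuse the libraries on which the RNAs were chosen, so the shared direction is a description. The cause of the changes below was not tested. Genes called for LR change numbered 170 in CAD and 1515 in N2A cells. In CAD cells there were 75 at an FDR of 0.01, 391 with DESeq2, 393 with no filter, 107 on length-scaled counts and 41 to 288 when each replicate number was left out. In N2A cells there were 18 at an FDR of 0.01, 3686 with DESeq2, 2484 with RLE scaling, 2363 with no filter, 499 on length-scaled counts and 8 to 101 without 1 replicate number.

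With Q331K, calls for LR change numbered 69 with no filter and 1 without any replicate number, for soma 11 with DESeq2, 192 with no filter, 1 on length-scaled counts and 0 to 5 without 1 replicate number, and for neurites 47, 207 and 0 to 4 with DESeq2, no filter and 1 replicate number left out. Genes called for LR in WT transgene cells numbered 3292 to 5515 without 1 replicate number.

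Signs turned as follows. On length-scaled counts the Q331K changes of Gsk3b were 0.011 in LR, -0.041 in soma and -0.030 in neurites, and in neurites that of Zfp652 was -0.0044 and that of Aldh7a1 -0.070. Without 1 replicate number, LR changes with Q331K ran from -0.35 to 0.082 for Brsk1 and from -0.045 to 0.0018 for Gsk3b. Soma changes ran from -0.034 to 0.21 for Peg10 and from -0.20 to 0.034 for Aldh7a1, and neurite changes from -0.050 to 0.23 for Brsk1 and from -0.013 to 0.089 for Zfp652. LR in WT transgene cells ran from -0.057 to 0.037 for Tbl1x and from -0.045 to 0.086 for Peg10. Averaged changes on length-scaled counts were -0.51 and -0.30 for Gsk3b and -0.29 and -0.0032 for Zfp652 (CAD and N2A cells) and 0.026 for Tbl1x in N2A cells, where it ran from -0.032 to 0.012 without 1 replicate number. The averaged CAD minus N2A difference of Gsk3b was 0.098 with upper-quartile scaling, 0.018 with RLE and -0.071 to 0.0015 without 1 replicate number. The LR difference without 1 replicate number ran from -0.13 to 0.043 for Tbl1x and from -0.0083 to 0.062 for Zfp652, was -0.12 and -0.018 for Zfp652 with upper-quartile and RLE scaling, and -0.041 for Peg10 with upper-quartile scaling.

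Transcripts called for usage in CAD cells (1249) numbered 705 at an FDR of 0.01, 3649 with limma's diffSplice, 2109 with log odds, 723 to 886 without 1 replicate number, and 570 and 767 with log odds without replicates 2 and 3. In N2A cells (591) they numbered 322, 1637 with diffSplice, 308 to 486 without 1 replicate number, and 292 and 387 with log odds without replicates 2 and 3.

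With a replicate block, LR change with Q331K was called for 1 gene, none of the 6. Other counts were within 1.5 times of those without the block (187 for LR change in CAD and 1977 in N2A cells), and no call on the 6 RNAs changed.

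Sampling noise limits Brsk1-205 and Tbl1x-202, at few CPM, and the transgene libraries had the lowest depth.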

Other observations

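The averaged level of the pathway lists moved in both directions in the knockouts. Of 18 Wnt and beta-catenin genes, 4 rose and 4 fell in CAD cells, and 7 rose and 0 fell in N2A cells, where 45.6% and 29.5% of all genes were called (edgeR, FDR 0.05). The medians of this list were -0.03 and 0.16, beside 0.01 and -0.02 for all genes.

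Of the LKB1 and AMPK-related kinase genes, 1 rose and 6 fell of 15 in CAD cells and 1 rose and 4 fell of 14 in N2A cells (medians of -0.07 and -0.09). Of 8 NCoR and ETO corepressor genes, 2 rose and 1 fell in CAD cells and 2 rose and 0 fell in N2A cells (medians of -0.05 and 0.03). Of the imprinted and retroelement-derived genes, 5 rose and 5 fell of 16 in CAD cells and 4 rose and 1 fell of 14 in N2A cells (medians of -0.03 and 0.21). Of 16 lysine catabolism and aldehyde dehydrogenase genes, 4 rose and 7 fell in CAD cells and 2 rose and 3 fell in N2A cells (medians of -0.09 and 0.02).

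In WT transgene cells, which the choice did not use, 39.5% of all genes were called for LR, at a median of -0.011. LR was called above 0 for 3 and below 0 for 6 of 17 Wnt and beta-catenin genes (median -0.19), for 2 and 5 of 15 LKB1 and AMPK-related kinase genes (-0.18), for 2 and 5 of 14 imprinted and retroelement-derived genes (-0.022) and for 1 and 1 of 15 lysine catabolism and aldehyde dehydrogenase genes (-0.0051). Among the Wnt genes, Apc (1.94), Amer1 (1.47) and Ctnnb1 (0.60) were neurite-enriched and the receptor Lrp5 (-0.88) was soma-enriched. Among the kinase genes, the LKB1 partners Stradb (0.76) and Cab39l (0.53) lay above 0 and the kinases Mark2 (-0.36) and Sik2 (-0.64) below it. Of the imprinted and retroelement-derived genes, Rtl8b (0.47) was above 0 and Magel2 (-0.56), Peg3 (-0.43) and Sgce (-0.47), the imprinted neighbour of Peg10, below it, while Peg10 itself at 0.03 was not called. Each of these genes but Peg10 had an edgeR adjusted p of at most 0.018.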
